A study of Mus musculus with 18 samples.

Results

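The data described here compared MTOB with vehicle in J774.1 cells, a mouse macrophage line, that lack both C-terminal binding proteins, CTBP1 and CTBP2. Of the 18 RNA-seq samples in the series, 6 belong to this comparison by their titles, 3 Ctbp1/2dKO (dKO) samples given 1.5 mM MTOB for 4 h and 3 dKO samples given vehicle. The matching 6 wildtype samples, 3 with MTOB at the same dose and time and 3 with vehicle, were used to ask whether the response differed between genotypes. The remaining 6 samples, 3 of each genotype given 0.25 mM 4-Cl-HIPP, entered the fit, which estimates the spread over all 18, and their changes are given at the end beside those of MTOB.

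All 6 dKO samples carry Cas9-made lesions in both Ctbp1 and Ctbp2, and the dKO cells were grown out from single cells, with the number of clones used not given in the sources used here. A difference between genotypes and a difference between clones cannot be told apart. The vehicle is given as PBS/DMSO, while the MTOB stock was made in PBS. The samples are described as biological triplicates, and p-values measure the spread between these 3 cultures per group.

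MTOB (4-methylthio-2-oxobutyrate) is the keto acid at the end of the methionine salvage pathway, which returns the methylthio group left over from polyamine synthesis to methionine by a last transamination step. CTBPs are transcriptional corepressors with a dehydrogenase fold that binds NAD(H), and MTOB binds in their substrate pocket, for which it is used as a CTBP inhibitor. The comparison asks how much of the response to MTOB is present in cells made to lack these proteins.

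The values are TPM, transcript abundances scaled for transcript length, and they sum to between 999766 and 999897 in every one of the 18 samples, so that the sequencing depth behind them is unknown. Expression was compared as log2(TPM + 1), a scale that understates the change of genes at low levels. Adjusted p-values are from limma with Benjamini-Hochberg adjustment over 16383 genes. A gene is called changed at an adjusted p below 0.05 and a fold change above 1.5, and members of gene lists are said to rise or fall at an adjusted p below 0.05 alone, whatever the fold. Log2 fold changes are MTOB minus vehicle in dKO cells unless wildtype cells are named, with ± the standard error of the fit, and a number in parentheses after a gene is that gene's log2 fold change.

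The 2 targeted transcripts were read first. Ctbp1 stood at 24.4, 25.2 and 25.6 TPM in the dKO vehicle samples and 25.8, 22 and 25.0 TPM in the dKO MTOB samples, against 212, 238 and 204 TPM in the wildtype vehicle samples. The dKO mean was 11.5% of the wildtype mean, with no overlap between genotypes. Ctbp2 stood at 73.5, 74.9 and 79.4 TPM with vehicle and 81.9, 68.5 and 72.7 TPM with MTOB in dKO cells, and its vehicle mean was 82.0% of the wildtype mean of 92.6 ± 4.57 TPM (SD, n = 3). A lesion made by Cas9 need not lower a transcript, so the Ctbp2 level does not report on its protein. The study reports the loss of both proteins by western blot. Neither gene passed the test for MTOB in dKO cells, with log2 fold changes of −0.05 ± 0.13 (SE, adjusted p = 0.908) and −0.03 ± 0.06 (adjusted p = 0.843).

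The samples carried the identity of their label. All 10 macrophage markers were above 1 TPM in all 6 dKO samples, with Csf1r, the receptor for the macrophage growth factor CSF1, highest at up to 890.3 TPM, and their summed level ran from 3167 TPM in vehicle replicate 1 to 3510 TPM in MTOB replicate 2. Among markers of other cell types that had values, Lck at up to 4.08 TPM and Pecam1 at up to 1.43 TPM were the most abundant. Those of B cells, fibroblasts, epithelial cells and neutrophils stayed below 1 TPM. Values were at hand for 2 of 5 T cell, 3 of 5 B cell and 1 of 5 fibroblast markers. They were also at hand for 1 of 4 epithelial, 2 of 5 neutrophil and 3 of 4 endothelial markers, and the rest could not be read. Replicate 1 of the dKO MTOB group stood apart from the other dKO samples. Transcripts of the mitochondrial genome made up 7.04% of its TPM, against 9.20% and 9.53% in the other MTOB replicates and 10.3%, 9.93% and 9.65% in the vehicle replicates, and its ribosomal protein transcripts made up 14.8%, against 13.4% to 13.8%. The main counts are also given without it.

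MTOB changed 267 genes in cells without CTBPs, 189 higher and 78 lower, which is 1.15% and 0.476% of the genes tested. Above 2-fold, 80 genes rose and 11 fell. The median log2 fold change was 0.88 among the genes called higher and −0.68 among those called lower, against −0.01 over all genes tested. In 265 of the 267 the 3 MTOB values did not overlap the 3 vehicle values, as was the case in 3441 (21%) of all genes tested. On the adjusted p alone, 498 genes (3.04%) rose and 580 (3.54%) fell, so that 811 of these 1078 changed by less than 1.5-fold. Without MTOB replicate 1 the count was again 267, of which 200 were shared, but with 204 higher and 63 lower. The balance of directions on the adjusted p alone turned to 485 higher and 396 lower without that replicate, and to 589 higher and 464 lower with median-of-ratios scaling. Fitted on the 6 dKO samples alone, 135 genes were called, 126 of them among the 267, and with a pseudocount of 5 the calls were 131, of which 85.5% were higher against 70.8% here. In bulk RNA, fewer cells in a given state and less RNA per cell cannot be told apart.

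**Figure D1:**
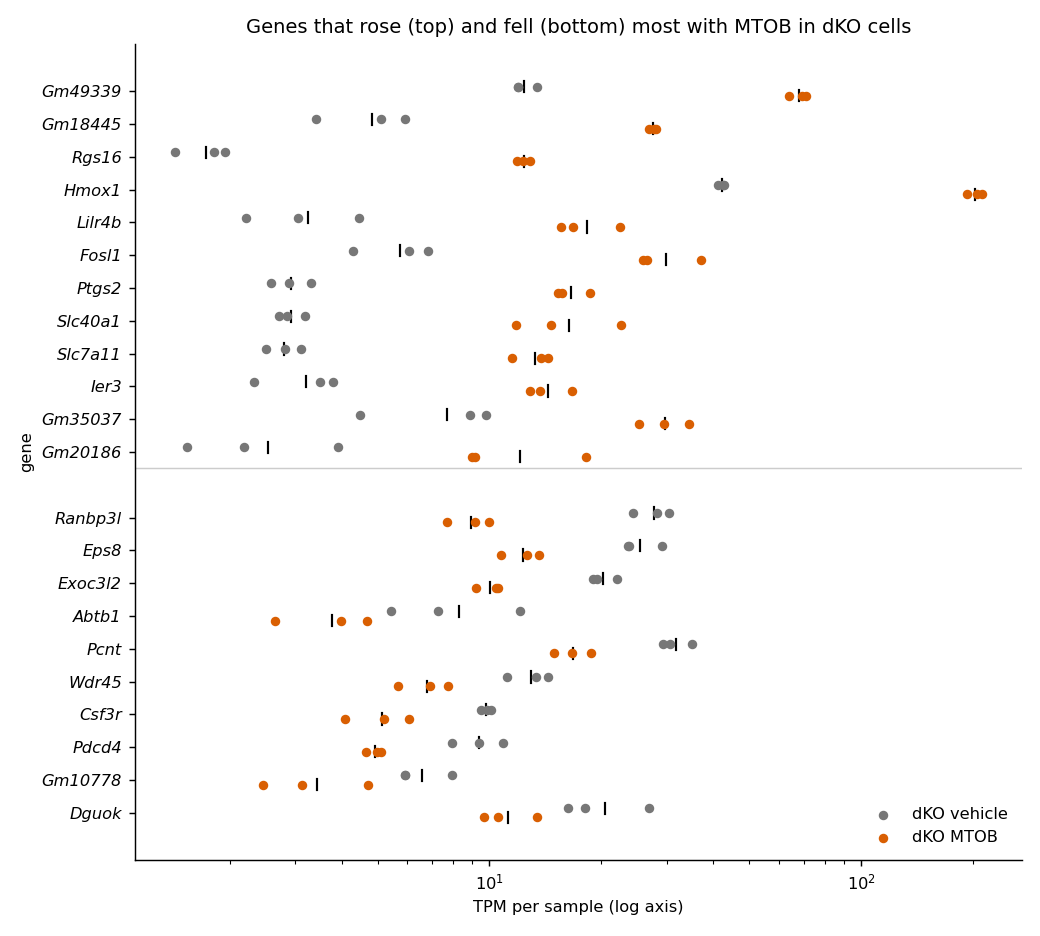
TPM on a log axis in each dKO sample for the 12 genes that rose and the 10 that fell most with MTOB (mean of at least 5 TPM over the 6 samples, no overlap between groups). Points are samples, grey for vehicle and orange for MTOB, and black ticks are group means; Hmox1 moved from near 42 to near 203 TPM and Ranbp3l from near 28 to near 9 TPM.

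Genes of heme breakdown and iron export were among those that rose most. Hmox1, heme oxygenase 1, whose enzyme opens heme to biliverdin, iron and carbon monoxide (GRCm39 chr8:75820241-75827217, plus strand), stood at 42.5, 41.1 and 42.8 TPM with vehicle and 211, 193 and 204 TPM with MTOB. The 3 MTOB samples lay far above the 3 vehicle samples and close to each other. The change was 2.24 ± 0.07 on the log2 scale (SE, adjusted p = 3.19e-11), or 4.72-fold. Slc40a1, which encodes ferroportin, the iron exporter, went from 2.85, 3.19 and 2.72 TPM to 11.8, 22.6 and 14.6 TPM. Relative to their mean, the MTOB replicates spread more widely than those of Hmox1 (log2 fold change 2.10 ± 0.21, adjusted p = 1.26e-05).

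Rgs16, a GTPase-activating protein that shortens G-protein signals, was also among the genes that rose most, at 1.95, 1.43 and 1.82 TPM with vehicle and 12.9, 12.3 and 11.9 TPM with MTOB (2.30 ± 0.15, adjusted p = 8.66e-08). Fosl1, a member of the AP-1 transcription factor family, moved from 4.30, 6.07 and 6.85 TPM to 37.1, 26.5 and 25.9 TPM (2.19 ± 0.19, adjusted p = 2.87e-06). Ptgs2, which encodes the inducible cyclooxygenase COX-2, moved from 2.88, 2.58 and 3.32 TPM to 15.3, 18.6 and 15.7 TPM (2.16 ± 0.15, adjusted p = 1.76e-07). In each the lowest MTOB sample was above the highest vehicle sample, as the choice of leading genes required. Ier3, an immediate early gene, rose by 1.88, Ehd1, an endocytic recycling ATPase, by 1.78, and Clec4e, the Mincle receptor for mycobacterial glycolipids, by 1.74 on the log2 scale.

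Leading genes were named among called genes with a mean of at least 5 TPM and no overlap between the groups. Of these, the largest rise on the log2(TPM + 1) scale was that of Gm49339 (chr10:51356708-51372709, plus strand), at 13.4, 11.9 and 11.9 TPM with vehicle and 69.1, 70.9 and 63.8 TPM with MTOB (2.36 ± 0.09, adjusted p = 5.38e-10). Its span contains that of Lilr4b (chr10:51356728-51362799), an inhibitory leukocyte immunoglobulin-like receptor, which went from 2.21, 3.06 and 4.47 TPM to 22.4, 15.6 and 16.7 TPM. Reads from overlapping genes can be divided between them during quantification, so the size of each change is uncertain. With a pseudocount of 0.1 in place of 1, Rgs16 (2.78), Gm18445 (2.52), Lilr4b (2.49) and Ptgs2 (2.46) rose by more than Gm49339 (2.44). Gm18445, an unprocessed pseudogene (2.32), and the lncRNAs Gm35037 (1.87) and Gm20186 (1.87) were also among the 15. The call was lost for Gm20186 without vehicle replicate 1 or 3 or MTOB replicate 3 (adjusted p up to 0.0853). Gm35037 and Gm20186 also lost it with a pseudocount of 0.1 (adjusted p = 0.127 and 0.0623) and with only the dKO samples fitted (adjusted p = 0.0566 and 0.0861).

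Fewer genes of at least 5 TPM fell, and by less. Ranbp3l, a protein related to the Ran-binding nuclear export factor RanBP3, was at 28.2, 30.4 and 24.3 TPM with vehicle and 7.66, 9.17 and 9.97 TPM with MTOB (−1.53 ± 0.13, adjusted p = 2.48e-06). Eps8, which couples receptor tyrosine kinases to actin capping and bundling, was at 23.5, 29.1 and 23.7 TPM and 10.8, 13.6 and 12.6 TPM (−0.99 ± 0.10, adjusted p = 1.82e-05). The groups do not overlap in either, which the rule for leading genes fixed. Pcnt, the pericentrin scaffold of the centrosome, fell by 0.88, Wdr45, an autophagy factor, fell by 0.84, Pdcd4, an inhibitor of translation initiation, fell by 0.80 and Exoc3l2 fell by 0.94 on the log2 scale. Also called were Csf3r, the G-CSF receptor (−0.83), Abtb1 (−0.92), Gm10778 (−0.80) and Dguok, the mitochondrial deoxyguanosine kinase (−0.79). These last 4 calls were lost when single libraries were left out, for Csf3r when any 1 library other than MTOB replicate 2 was left out (adjusted p up to 0.09), Abtb1 without vehicle replicate 2 or 3 or MTOB replicate 1 or 3 (adjusted p up to 0.128), Gm10778 when any 1 library other than MTOB replicate 2 was left out (adjusted p up to 0.17) and Dguok without vehicle replicate 1 or MTOB replicate 1 or 3 (adjusted p up to 0.119). With only the dKO samples fitted they did not pass either, nor did Wdr45 (adjusted p = 0.065) and Pdcd4 (adjusted p = 0.0524).

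Among called genes the most abundant in vehicle samples was mt-Atp6, a mitochondrially encoded ATP synthase subunit, at 14683, 14109 and 12954 TPM with vehicle and 7770.2, 8424 and 12049.5 TPM with MTOB. Its MTOB replicate 3 lay close to the vehicle range, and the call (−0.59, adjusted p = 0.0231) was lost without vehicle replicate 1 or 2 or MTOB replicate 1 or 2 (adjusted p up to 0.103). Actg1, cytoplasmic γ-actin, was the next and was far tighter, at 783, 801 and 837 TPM with vehicle and 1708, 1669 and 1709 TPM with MTOB (1.07 ± 0.03, adjusted p = 3.19e-11). Esd, esterase D, which hydrolyses S-formylglutathione, rose by 0.83, Ank, a transmembrane exporter of pyrophosphate and ATP, by 0.64 and Anxa5, annexin A5, by 0.60.

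NRF2 is the transcription factor that oxidants and electrophiles release from KEAP1, and with small MAF partners it binds antioxidant response elements (AREs) upstream of genes for glutathione synthesis, thioredoxin reduction, NADPH supply and iron storage. Of 20 NRF2 target genes tested, 16 rose, none fell and 4 did not pass, with a median log2 fold change of 0.48, against 3.04% and 3.54% of all genes and a median of −0.01. From 15 to 17 rose when any 1 of the 6 libraries was left out, and 17 did without MTOB replicate 1. The shares of 3.04% and 3.54% are the background for every dKO list count that follows. They cover all 16383 genes tested, many of them below 1 TPM, where the scale understates changes. The lists were not matched to them by level. Lists and members were chosen with earlier results of these data known, so a count above these shares is a description and not a test. In wildtype cells 15 of the 20 rose, where 3.8% of all genes rose and 3.46% fell on the adjusted p alone. Over all lists, 161 genes passed, and 113 of them did so in each of 6 fits that left out 1 dKO library, 50 of the 58 above 1.5-fold and 63 of the 103 below it.

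By role, for cystine and glutathione, Slc7a11, the cystine-glutamate exchanger, was at 2.50, 3.10 and 2.81 TPM with vehicle and 11.5, 13.8 and 14.4 TPM with MTOB (1.9 ± 0.10, adjusted p = 5.96e-09). Gclm and Gclc, the 2 subunits of glutamate-cysteine ligase, rose by 0.99 and 0.48. For thiol reduction, Srxn1, sulfiredoxin, was at 30.5, 31.6 and 32.9 TPM and 86.6, 82.5 and 86.3 TPM (1.40 ± 0.08, adjusted p = 1.97e-08). The samples of each group lay within a few TPM of each other and far from the other group. Txnrd1, thioredoxin reductase, was at 211, 189 and 187 TPM and 352, 383 and 391 TPM (0.94 ± 0.05), and Prdx1, a peroxiredoxin, rose by only 0.27.

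The NADPH enzymes Pgd (0.39), Me1 (0.43) and G6pdx (0.15) rose by less than 1.5-fold. Osgin1, an oxidative stress-induced growth inhibitor (1.33), Sqstm1, the autophagy receptor p62 (1.08), Abcc1, an exporter of glutathione conjugates (0.77), and Blvrb, biliverdin reductase B (0.62), passed the fold threshold as well. The ferritin chains Fth1 (0.37) and Ftl1 (0.41) rose from already high levels, Fth1 from 5696, 5673 and 5657 TPM to 7870.3, 7251 and 6859.9 TPM, with the caution that both have many processed copies in the genome that share reads. The call was lost for G6pdx when any 1 library other than MTOB replicate 1 was left out (adjusted p up to 0.116). The 4 that did not pass were Nqo1 (0.47, adjusted p = 0.158), Gsr (0.12), Tkt (−0.04) and Taldo1 (0.07). Of 6 regulators, the small MAF genes Mafg (0.52) and Maff (1.09) rose. Neither passed when only the dKO samples were fitted, and the log2 fold change of Maff ran from 0.41 to 1.88 over the alternatives. Nfe2l2, the NRF2 gene itself (−0.04, adjusted p = 0.779), Keap1 (−0.02), Bach1 (0.07) and Mafk (0.07) did not pass.

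The upstream sequences of Srxn1 and Slc7a11, the 2 NRF2 targets with the largest rise among those that held an ARE core in a RefSeq promoter window, are shown because NRF2 acts through that element. The ARE core was searched as TGANNNNGC on both strands in the 250 bases before the start site, and its matches are in capitals. It can overlap the AP-1 motif TGANTCA. Srxn1 lies on the plus strand (chr2:151947194-151947443, GRCm39) and Slc7a11 on the minus strand (chr3:50398063-50398312), both given 5′ to 3′ along the gene.
Srxn1: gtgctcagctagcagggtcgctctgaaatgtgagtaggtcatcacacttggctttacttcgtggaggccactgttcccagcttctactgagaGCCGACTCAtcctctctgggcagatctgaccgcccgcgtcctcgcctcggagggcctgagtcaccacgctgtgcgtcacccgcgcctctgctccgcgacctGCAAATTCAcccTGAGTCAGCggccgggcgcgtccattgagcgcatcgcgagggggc
Slc7a11: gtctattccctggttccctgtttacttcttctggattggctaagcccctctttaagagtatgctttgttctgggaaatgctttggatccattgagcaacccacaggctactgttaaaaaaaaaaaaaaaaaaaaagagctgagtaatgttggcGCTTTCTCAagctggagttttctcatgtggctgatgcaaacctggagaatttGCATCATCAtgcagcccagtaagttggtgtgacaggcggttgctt
Srxn1 held 3 matches and Slc7a11 held 2. Of the 20 targets, 16 had a window and 10 of these (62.5%) held the core, as did 41.4% of the windows of all 10437 tested genes that had one. Among the genes called higher, 60 of 139 windows (43.2%) held it. The AP-1 motif was in 3 of the 16 target windows (18.8%), in 19 of the 139 (13.7%) and in 5.58% of all windows. A match is a description of the letters only.

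Related lists overlapped the NRF2 targets in part. Of 16 heme and iron genes 8 rose and none fell (median 0.25), and 5 rose when only the dKO samples were fitted. Beside Hmox1, Blvrb, Slc40a1 and ferritin, these were Slc11a2, the iron importer DMT1 (0.41), Slc48a1, a heme transporter (0.49), and Slc11a1, the phagosomal metal transporter NRAMP1 (1.07), for which the call was lost when any 1 library was left out (adjusted p up to 0.131). Tfrc, the transferrin receptor, was at 0.13 (adjusted p = 0.726). Of 23 glutathione and thioredoxin genes 9 rose and 1 fell (median 0.16). Glrx, glutaredoxin, which reduces glutathionylated proteins, went from 42.9, 37.6 and 44.6 TPM to 109, 113 and 116 TPM (1.42 ± 0.12, adjusted p = 1.71e-06), and Gpx1, a glutathione peroxidase, rose by 0.84. Txnip, the inhibitor of thioredoxin, was the member that fell, from 206, 193 and 214 TPM to 145, 161 and 146 TPM (−0.44).

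Of 13 metallothionein and zinc transport genes, 4 rose and 2 fell. Slc30a1, the zinc exporter of the plasma membrane (0.70), and Slc30a4 (0.64) passed the fold threshold, and Slc39a1 rose by 0.48. Mt2, metallothionein 2, rose by 0.56 from 52.0, 40.3 and 49.1 TPM to 81.1, 68.3 and 60.7 TPM, with no overlap between groups, but it no longer passed without vehicle replicate 2 or MTOB replicate 1 (adjusted p up to 0.0596). Mt1 did not pass (0.13, adjusted p = 0.277). The zinc transporters Slc30a5 (−0.28) and Slc39a10 (−0.46) fell. With only the dKO samples fitted, 3 genes of the list rose and none fell.

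NF-kB is the transcription factor family that drives inflammatory gene expression in macrophages, and it induces its own inhibitors and several of its own subunits. Of 16 NF-kB subunits, inhibitors and close targets, 12 rose and none fell, with a median of 0.54, against 3.04% of all genes. The count was 9 or 10 when any 1 library was left out, and 6 when only the dKO samples were fitted. In wildtype cells 10 rose. Among subunits, Nfkb2, the p100 precursor, was at 32.8, 30.6 and 32.9 TPM with vehicle and 48.0, 46.4 and 46.1 TPM with MTOB (0.53 ± 0.05, adjusted p = 3.97e-06), and Nfkb1 (0.22), Rel (0.29) and Relb (0.55) rose as well. The call was lost for Nfkb1 without vehicle replicate 2 (adjusted p up to 0.0504), Rel without vehicle replicate 1 or 3 or MTOB replicate 2 or 3 (adjusted p up to 0.0859) and Relb when any 1 library was left out (adjusted p up to 0.137). Rela did not pass (0.01, adjusted p = 1).

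Inhibitors and adaptors rose as well. Nfkbia, which encodes IκBα, was at 67.2, 69.2 and 75.2 TPM and 124, 123 and 123 TPM (0.80 ± 0.06, adjusted p = 4.2e-07), with MTOB replicates within 2 TPM of each other. Nfkbie, IκBε, was at 3.98, 2.85 and 3.84 TPM and 10.8, 9.16 and 8.59 TPM (1.21), Bcl3 rose by 0.98, and Nfkbib rose by 0.52. Of the A20-binding proteins Tnip3 rose by 0.80 and Tnip1 by 0.54, and Traf1, an adaptor of TNF receptors, by 0.88. Tnfaip3, A20 itself, had 0.74 without passing (adjusted p = 0.0619).

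For Nfkbia and Nfkb2 the upstream windows are shown because both rose and both held an NF-kB motif, searched on both strands as GGG, any 2 bases and TTTCC, and printed in capitals. Nfkbia lies on the minus strand (chr12:55539433-55539682) and Nfkb2 on the plus strand (chr19:46292926-46293175) of GRCm39.
Nfkbia: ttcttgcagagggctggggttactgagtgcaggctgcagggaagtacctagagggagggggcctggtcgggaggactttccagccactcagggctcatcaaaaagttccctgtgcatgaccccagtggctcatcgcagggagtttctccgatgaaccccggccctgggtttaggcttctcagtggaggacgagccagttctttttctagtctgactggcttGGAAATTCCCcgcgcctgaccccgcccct
Nfkb2: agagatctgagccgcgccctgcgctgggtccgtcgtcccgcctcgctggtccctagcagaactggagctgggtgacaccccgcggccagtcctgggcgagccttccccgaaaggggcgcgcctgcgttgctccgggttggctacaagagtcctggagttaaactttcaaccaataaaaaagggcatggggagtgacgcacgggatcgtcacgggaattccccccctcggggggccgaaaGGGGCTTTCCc
Each held 1 match. In all, 4 of the 13 windows of the list (30.8%) held the motif, the others being Rel and Tnfaip3, against 1.88% of all windows and 6 of 139 (4.32%) among the genes called higher.

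Immediate early genes are switched on by growth factor and stress signalling without new protein synthesis. Of 20, 7 rose and none fell (median 0.44), with 3 that rose when only the dKO samples were fitted. Fosl1 and Ier3 are described above. Junb went from 83.5, 69.3 and 80.6 TPM to 144, 131 and 126 TPM (0.78 ± 0.08, adjusted p = 2.35e-05), Ier2 rose by 0.77, Jun by 0.59, Fosl2 by 0.48 and Maff by 1.09. Fos (0.58, adjusted p = 0.0584), Atf3 (0.80, adjusted p = 0.0557) and Egr2 (0.96, adjusted p = 0.0896) did not pass, and Egr1 was at −0.03. None of the 15 windows of this list held TGANTCA.

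Of 13 genes of the feedback on ERK signalling, 4 rose. The phosphatases Dusp2 (0.78) and Dusp4 (0.83) rose past 1.5-fold, Dusp4 from 14.7, 16.8 and 15.9 TPM to 26.2, 29.8 and 30.9 TPM, as did Dusp5 (0.77), for which the call was lost when any 1 library other than MTOB replicate 1 was left out (adjusted p up to 0.0795). Ets2, an ERK-responsive transcription factor, rose by 0.49. Dusp6 and Dusp1 did not pass (−0.07 and 0.55, adjusted p = 0.939 and 0.165).

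Of 19 cytokine and chemokine genes tested, 8 rose and none fell (median 0.34). From 6 to 8 rose when 1 library was left out, with 6 without MTOB replicate 1 or vehicle replicate 3, and 4 when only the dKO samples were fitted. Tnf, an early macrophage cytokine, was at 38.4, 37.6 and 42.8 TPM with vehicle and 90.4, 96.4 and 98.6 TPM with MTOB (1.24 ± 0.08, adjusted p = 6.69e-08). Ccl3, a chemokine for monocytes and T cells, was at 28.6, 25.4 and 28.9 TPM and 64.7, 65.6 and 65.4 TPM (1.21 ± 0.11, adjusted p = 2.88e-06). Ccl9 rose by 1.36, Ccl4 by 1.16, Cxcl16 by 0.53 and Tgfb1 by 0.25.

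Ccl22 (0.83) and Cxcl2 (1.38) were called at levels below 6 TPM in every sample. Those calls were lost for Ccl22 without vehicle replicate 3 or MTOB replicate 1 (adjusted p up to 0.0729) and Cxcl2 when any 1 library was left out (adjusted p up to 0.135). Cxcl10 (1.02, adjusted p = 0.0548) and Ccl2 (0.32) did not pass. A further 3 genes of the list were below the expression limit, and 5 were not analysed here.

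Surface receptors moved in both directions. Of 14 inhibitory immune receptor genes 6 rose and 1 fell (median 0.36). Pdcd1, which encodes PD-1, was at 20.3, 19.9 and 18 TPM with vehicle and 49.2, 47.8 and 47.4 TPM with MTOB (1.27 ± 0.06, adjusted p = 4.74e-09). Fcgr2b, the inhibitory Fc receptor, rose from 3.28, 2.02 and 2.10 TPM to 10.1, 10.5 and 7.98 TPM (1.61), Lilrb4a by 1.19 and Cd300a by 0.71. Lilrb4a is subject to the same doubt about shared reads as Lilr4b. Cd274, PD-L1, was called (0.62) at under 1 TPM in every sample, and the call was lost without vehicle replicate 1 or 3 or MTOB replicate 1 or 3 (adjusted p up to 0.147). Sirpa, the receptor for CD47, fell from 167, 167 and 166 TPM to 118, 134 and 143 TPM (−0.35).

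Of 20 phagocytic and Toll-like receptor genes 6 rose and 3 fell, or 3 and 1 with only the dKO samples fitted. Cd14, the co-receptor for lipopolysaccharide, was at 135, 145 and 149 TPM and 322, 329 and 324 TPM (1.18 ± 0.07, adjusted p = 3.96e-08). Tlr2, which senses bacterial lipopeptides, rose by 0.64, Tlr9, the receptor for CpG DNA, by 0.80 and C3ar1, the C3a receptor, by 0.52. Cd36, a scavenger receptor, rose by 0.83, a call lost without vehicle replicate 2 or 3 or MTOB replicate 2 or 3 (adjusted p up to 0.144). Tlr7 (−0.41), Trem2 (−0.31) and the scavenger receptor Msr1 (−0.56) fell, and Tlr4 did not pass (−0.12, adjusted p = 0.486). Calls were also lost for C3ar1 without vehicle replicate 1, 2 or 3 or MTOB replicate 2 (adjusted p up to 0.0836), Tlr7 without vehicle replicate 2 or 3 or MTOB replicate 1 (adjusted p up to 0.0541) and Msr1 without vehicle replicate 2 (adjusted p up to 0.0606).

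**Figure D2:**
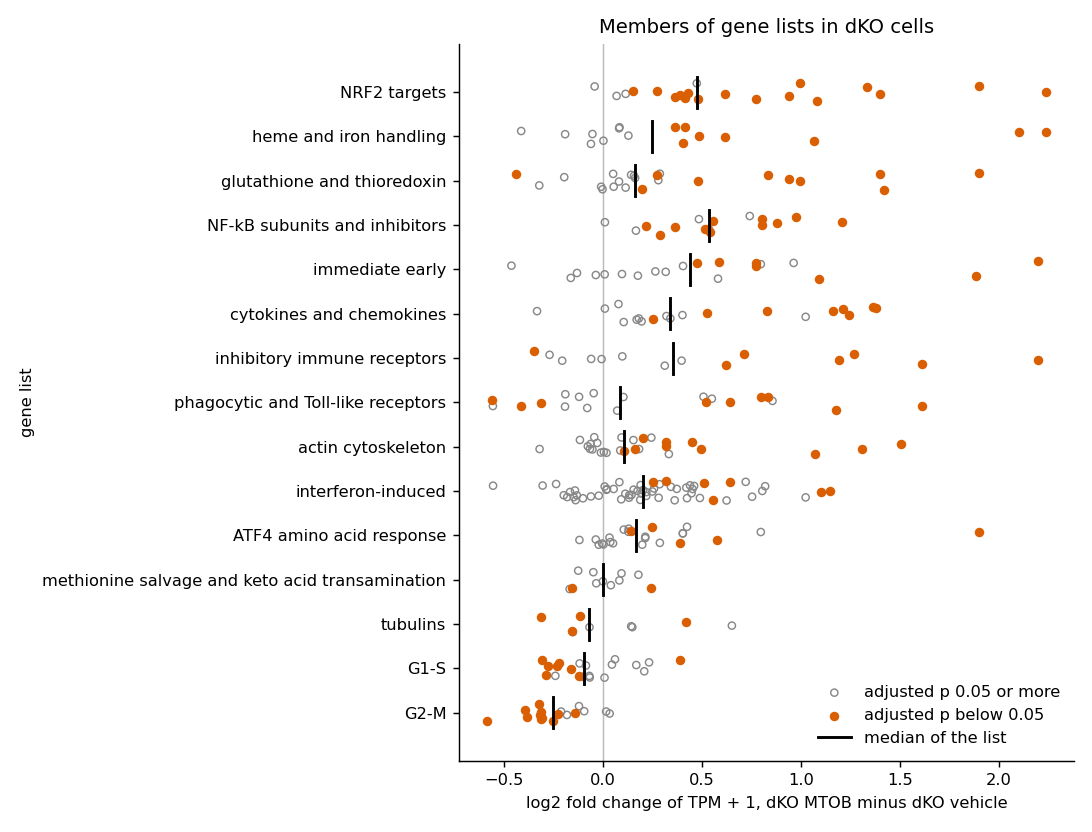
Log2 fold change of TPM + 1 with MTOB in dKO cells for each tested member of 15 gene lists. Each point is a gene, filled where the adjusted p was below 0.05, and the black bar is the median of the list; it stood at 0.48 for NRF2 targets, 0.54 for NF-kB genes and −0.25 for G2-M genes.

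Part of the actin list rose, and part of the tubulin list fell. Of 27 actin cytoskeleton genes 10 rose and none fell (median 0.11). From 9 to 11 rose when 1 library was left out, and 7 when only the dKO samples were fitted. Beside Actg1, described above, Actb, β-actin, rose from 3233, 3323 and 3448 TPM to 4184, 4069 and 4212 TPM (0.32 ± 0.03, adjusted p = 5.35e-06). Marcksl1, which binds actin and membrane phospholipid, was at 116, 117 and 124 TPM with vehicle and 363, 314 and 344 TPM with MTOB (1.51 ± 0.06, adjusted p = 1e-09). Zyx, zyxin of focal adhesions (1.31), Tpm4, a tropomyosin (0.50), Wdr1, a cofactor of cofilin (0.45), Tpm1 (0.32), Vasp (0.20), Cfl1 (0.16) and Pfn1 (0.11) also rose. The call was lost for Pfn1 without vehicle replicate 2 or MTOB replicate 1, 2 or 3 (adjusted p up to 0.126). Zyx lost it in 1 of 14 alternatives (adjusted p up to 0.0582). Srf, the factor that drives actin genes, did not pass (0.25, adjusted p = 0.128).

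Of 9 tubulin genes, Tubb6 rose (0.42) and 3 fell, Tubb5 from 919, 907 and 909 TPM to 710.4, 738 and 753 TPM (−0.31), Tuba1b (−0.16) and Tubb4b (−0.11). The last call was lost without vehicle replicate 1, 2 or 3 or MTOB replicate 1 (adjusted p up to 0.144). Actin and tubulin genes each have near-identical relatives between which reads can be split.

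Prostanoid and G-protein genes moved in opposite directions within their lists. Of 13 prostanoid and leukotriene genes 1 rose and 3 fell, against 3.04% and 3.54% of all genes, and 1 fell when only the dKO samples were fitted. Ptgs2 rose, as given above, whereas Ptgs1, the constitutive cyclooxygenase COX-1, was at 148, 141 and 145 TPM with vehicle and 88.1, 98.5 and 89.5 TPM with MTOB (−0.65 ± 0.07, adjusted p = 3.02e-05). Hpgds, which makes prostaglandin D, fell by 0.78 on the log2 scale and Alox5, the 5-lipoxygenase, fell by 0.41. Of 12 RGS and G-protein genes, Rgs16 rose and Rgs2 went from 30.1, 30.8 and 29.8 TPM to 19.6, 15.8 and 17.4 TPM (−0.75 ± 0.15, adjusted p = 0.00714), while Gnai2 fell by 0.17. Tgfbr1, a TGF-β receptor, fell by 0.29, under 1.5-fold, a call lost without vehicle replicate 1 or 3 or MTOB replicate 3 (adjusted p up to 0.0791). Xylt1, which starts glycosaminoglycan chains, rose by 0.47. Of 18 glycosaminoglycan genes 2 rose and 1 fell, Hs6st1 (0.30) and Ext2 (−0.22) being the others, which makes 11.1% and 5.56% of the list. Calls were lost for Alox5 when any 1 library other than MTOB replicate 1 was left out (adjusted p up to 0.116), Gnai2 without vehicle replicate 2 or 3 or MTOB replicate 1 or 2 (adjusted p up to 0.0823) and Ext2 without vehicle replicate 1 or 2 or MTOB replicate 1 or 2 (adjusted p up to 0.131).

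The genes that handle MTOB and methionine themselves were read against the same shares, 3.04% of all genes that rose and 3.54% that fell. Of 11 methionine salvage and keto acid transamination genes, Bcat1, a branched-chain aminotransferase, rose from 95.2, 97.3 and 95.2 TPM to 113, 113 and 116 TPM (0.24 ± 0.04, adjusted p = 0.00043), and Got1, the cytosolic aspartate aminotransferase, fell by 0.15. The salvage enzymes Mtap (0.04), Mri1 (0.00), Apip (0.08), Enoph1 (−0.05) and Adi1 (−0.03) did not pass. Of 10 methionine cycle genes only Cth, cystathionine γ-lyase, rose (0.76), at under 3 TPM, and the call was lost without vehicle replicate 1 or 2 or MTOB replicate 1 (adjusted p up to 0.08). Mat2a, the methionine adenosyltransferase, was at −0.12 (adjusted p = 0.051). Of 13 polyamine genes 4 rose, all by under 1.5-fold, with Odc1, ornithine decarboxylase, at 0.22, Sms at 0.25, Amd1 at 0.15 and Smox at 0.41, but from 1 to 3 rose when 1 library was left out, with 1 without MTOB replicate 1 or vehicle replicate 2 and none when only the dKO samples were fitted. Calls were lost for Got1 without vehicle replicate 2 or 3 or MTOB replicate 1 or 2 (adjusted p up to 0.152), Sms without vehicle replicate 2 or 3 or MTOB replicate 1 or 2 (adjusted p up to 0.0909), Amd1 when any 1 library other than MTOB replicate 2 was left out (adjusted p up to 0.145) and Smox without vehicle replicate 1 or 2 or MTOB replicate 1 or 2 (adjusted p up to 0.188).

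None of the 4 CTBP family dehydrogenases passed. Phgdh, a dehydrogenase of the same fold that starts serine synthesis, was at 365, 365 and 351 TPM and 365, 315 and 349 TPM (−0.07 ± 0.08, adjusted p = 0.696). Grhpr, another of this fold, was at −0.32 (adjusted p = 0.284). Of 12 CTBP corepressor partners, Ehmt2, the histone methyltransferase G9a, fell by 0.27 and the other 11 did not pass. The call for Ehmt2 was lost when only the dKO samples were fitted. Of 13 serine and one-carbon genes Mthfd2 rose (0.21). Of 24 ATF4 amino acid response genes 5 rose and none fell, with Atf4 at 0.25, Slc3a2, the partner chain of the cystine exchanger, at 0.39, Cebpb at 0.58 and Slc7a5 at 0.14 beside Slc7a11, whereas Asns (0.20, adjusted p = 0.0915), Trib3 (0.43), Chac1 (0.29) and Ddit3 (0.13) did not pass. From 3 to 5 rose when 1 library was left out, with 3 without MTOB replicate 1 or vehicle replicate 2, while 1 rose when only the dKO samples were fitted and 7 with median-of-ratios scaling. Calls were lost for Mthfd2 without vehicle replicate 2 (adjusted p up to 0.0779), Cebpb when any 1 library other than MTOB replicate 2 was left out (adjusted p up to 0.135) and Slc7a5 without vehicle replicate 2 or 3 or MTOB replicate 1 or 2 (adjusted p up to 0.0846).

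Most genes of mitosis fell, by small amounts. Of 17 G2-M genes 11 fell and none rose, with a median of −0.25, against 3.54% of all genes. The count was 10 or 11 when any 1 library was left out, but 1 when only the dKO samples were fitted. Mki67, the Ki-67 proliferation marker, was at 195, 197 and 192 TPM with vehicle and 104, 147 and 142 TPM with MTOB (−0.58 ± 0.09, adjusted p = 0.000785), lowest in MTOB replicate 1. Ccna2, cyclin A2, was at 188, 187 and 191 TPM and 136, 151 and 147 TPM (−0.38 ± 0.03, adjusted p = 4.35e-06). Top2a (−0.31), Ccnb1, cyclin B1 (−0.31), Birc5, survivin (−0.32), Kif11 (−0.39), Cdc20 (−0.25) and Plk1 (−0.23) fell as well, and none of the 17 passed the fold threshold. Of 20 G1-S genes 7 fell, led by Cdc45 (−0.31), Rrm1 (−0.29) and Mcm7 (−0.27), and Ccne1, cyclin E1, rose (0.39). From 5 to 7 of the 20 fell when any 1 library was left out, but 2 did when only the dKO samples were fitted. In wildtype cells 12 of the G2-M genes and none of the G1-S genes fell, against 3.46% of all genes. The difference between genotypes was not tested for either list as a whole, and gene by gene it passed for no member of either. The call was lost for Ccne1 without vehicle replicate 2 or MTOB replicate 1 or 3 (adjusted p up to 0.121).

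The window upstream of Ccnb1 is shown because CCAAT boxes recur in the promoters of the list. CCAAT was searched on both strands and is in capitals, on the minus strand at chr13:100922995-100923244 of GRCm39.
Ccnb1: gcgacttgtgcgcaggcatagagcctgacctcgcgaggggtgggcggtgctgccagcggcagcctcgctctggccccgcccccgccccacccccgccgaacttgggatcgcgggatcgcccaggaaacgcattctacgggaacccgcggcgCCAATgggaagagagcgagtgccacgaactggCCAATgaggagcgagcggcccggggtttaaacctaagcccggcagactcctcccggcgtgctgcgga
It held 2 matches. Of 14 windows of the G2-M list 13 (92.9%) held CCAAT, against 41.2% of all windows and 26 of 55 (47.3%) among genes called lower. The CHR motif TTTGAA was in 6 of the 14 (42.9%), in 13.6% of all windows and in 6 of the 55 (10.9%).

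Interferon-induced genes gave a weak signal in dKO cells. Of 59 tested, 7 rose and none fell (median 0.20), against 3.04% of all genes that rose, but from 3 to 7 rose when 1 library was left out, with 3 without MTOB replicate 3 or vehicle replicate 2. In wildtype cells 22 of the 59 rose (median 0.43), against 3.8% of all genes there, and the difference between genotypes was not tested for the list as a whole. Rsad2, viperin, was at 4.46, 2.21 and 3.79 TPM and 8.66, 7.14 and 9.58 TPM (1.10 ± 0.17, adjusted p = 0.000711), Ifit3 rose by 1.15, and Irf1 by 0.56. Ifi207 was called as well (0.64), a call lost when any 1 library other than MTOB replicate 1 was left out (adjusted p up to 0.102). Isg15 (0.75, adjusted p = 0.233) and Ifit1 (0.81, adjusted p = 0.0641) did not pass. Tested gene by gene, the difference passed for none of the 59 at an adjusted p below 0.05. With only the dKO samples fitted, none of the 59 rose, and with a pseudocount of 5 the number was 11.

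Counts in lists of lipid, energy and stress genes stand against 3.04% of all genes that rose and 3.54% that fell. Of 11 LXR targets 3 fell, Fasn, fatty acid synthase (−0.43), Srebf1 (−0.36) and Scd2 (−0.30), with 1 without MTOB replicate 1, vehicle replicate 2 or vehicle replicate 3. Of 23 sterol synthesis genes 1 rose and 2 fell, Idi1 (0.20) and Sqle (−0.21) among them. Of 22 glycolysis and pyruvate genes 3 rose, among them the glucose transporter Slc2a1 (0.41), and 3 fell, among them Hk1, hexokinase 1 (−0.35), with 1 that fell without MTOB replicate 1 or any 1 vehicle replicate. Of 23 lysosome genes 4 rose and 2 fell, and Mitf, a transcription factor of lysosomal genes, was called at 0.59, whereas Lamp1 fell by 0.25. Of these 23, 1 fell without MTOB replicate 1 or 2 or any 1 vehicle replicate. With only the dKO samples fitted, 3 lysosome genes rose and 1 fell. Of 12 heat shock genes only Hspa8 rose (0.23). Of 17 genes of the unfolded protein response Herpud1 (0.35) and Creld2 (0.32) rose, Xbp1 fell by 0.20, and Hspa5, BiP, was at 0.08 (adjusted p = 0.331). With only the dKO samples fitted, no LXR, sterol synthesis or heat shock gene passed, and 1 glycolysis and pyruvate gene rose and 1 fell. Calls were lost for Srebf1 without vehicle replicate 1, 2 or 3 or MTOB replicate 1 (adjusted p up to 0.154), Scd2 without vehicle replicate 2 or 3 or MTOB replicate 1 or 3 (adjusted p up to 0.11), Idi1 when any 1 library other than vehicle replicate 1 was left out (adjusted p up to 0.137), Sqle without vehicle replicate 2 or MTOB replicate 3 (adjusted p up to 0.08), Creld2 when any 1 library other than MTOB replicate 2 was left out (adjusted p up to 0.108) and Xbp1 without vehicle replicate 2 or 3 or MTOB replicate 1 (adjusted p up to 0.081).

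The same comparison in wildtype cells called 329 genes (2.01%), and 132 genes were called in both genotypes, which is 49.4% of the dKO calls and 40.1% of the wildtype calls. Of these 132, 131 changed in the same direction. Of the 267 dKO calls, 246 had a wildtype change of the same sign, 180 of the 189 higher and 66 of the 78 lower, and 168 reached an adjusted p below 0.05 in wildtype cells. The other 99 did not, but in none of them did the difference between genotypes pass its own test, limma's interaction term, at an adjusted p below 0.05, while 52 had an unadjusted p below 0.05 for it. Absence from the wildtype calls is therefore not shown to be a difference between genotypes.

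**Figure D3:**
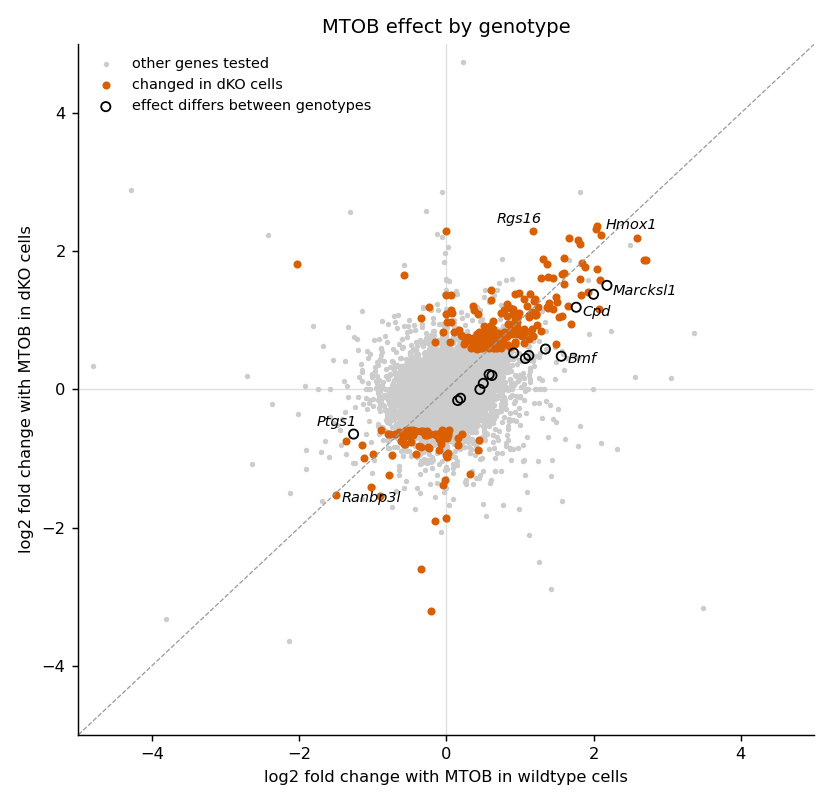
Log2 fold change with MTOB in wildtype cells (horizontal) and dKO cells (vertical) for the 16383 genes tested. Orange points are the genes called changed in dKO cells, black circles the 15 genes whose effect differed between genotypes, and the dashed line marks equal effects; Hmox1 lies near the line, and Marcksl1, Cpd and Bmf lie on the wildtype side of it.

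Several leading genes had changes close in size in both genotypes. The log2 fold change of Hmox1 was 2.24 in dKO and 2.10 in wildtype cells, a difference of 0.14 with a 95% interval of −0.07 to 0.35. For Actg1 the changes were 1.07 and 1.12 (interval of the difference −0.15 to 0.04), for Txnrd1 0.94 and 0.93 (−0.13 to 0.15), and for Ranbp3l −1.53 and −1.50 (−0.42 to 0.37). Rgs16 changed by 2.30 and 1.18 (0.67 to 1.57), a difference that did not pass (adjusted p = 0.0718). Its wildtype levels were 0.371, 0.0845 and 0.700 TPM with vehicle and 2.15, 1.79 and 2.35 TPM with MTOB, and at such low levels the added 1 TPM weighs on the fold. Pcnt was at −0.88 in dKO and −0.10 in wildtype cells (−1.21 to −0.35, adjusted p = 0.296).

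The MTOB effect differed between genotypes for 15 genes (0.0916%), and 1128 genes had an unadjusted p below 0.05. In 12 of the 15 the change had the same sign in both and was larger in wildtype cells. The clearest was Cpd, carboxypeptidase D, a Golgi enzyme that trims basic residues. It was at 30.2, 29.4 and 28.3 TPM with vehicle and 67.7, 69.3 and 67.3 TPM with MTOB in dKO cells, and at 29.4, 27.8 and 28.3 TPM and 95.6, 97.7 and 104 TPM in wildtype cells. The vehicle levels of the genotypes overlapped, whereas every wildtype MTOB sample was above every dKO MTOB sample. The log2 fold changes were 1.19 and 1.76, a difference of −0.57 (95% interval −0.70 to −0.45, adjusted p = 0.0011).

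Pou2f2, the lymphoid and myeloid octamer factor OCT2, followed the same pattern, at 19.4, 19.8 and 18.7 TPM and 51.3, 50.7 and 52.9 TPM in dKO cells and 22.3, 20.9 and 18.9 TPM and 88.7, 83.5 and 85.0 TPM in wildtype cells (difference −0.62, adjusted p = 0.00866). Marcksl1 started higher in dKO cells and ended lower, with wildtype values of 89.5, 85.9 and 94.3 TPM and 425, 418 and 390.4 TPM (difference −0.68, adjusted p = 0.00885). Abr changed by 0.45 in dKO and 1.07 in wildtype cells, and Odc1 by 0.22 and 0.58. Ptpn6, the phosphatase SHP-1, moved in opposite directions, from 246, 256 and 259.7 TPM to 228, 234 and 234 TPM in dKO cells and from 229, 230.1 and 242 TPM to 266, 273 and 262 TPM in wildtype cells (difference −0.32, adjusted p = 0.0098), although the dKO change alone (−0.13) no longer passed without vehicle replicate 2 or 3 or MTOB replicate 1 (adjusted p up to 0.103). These 6 genes passed in every one of 12 fits that left out 1 of the samples compared, but Odc1 and Ptpn6 no longer passed without a variance trend (adjusted p = 0.102 and 0.131), nor did Ptpn6 with only the groups compared in the fit (adjusted p = 0.0507).

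The other 9 lost the call in at least 8 of those 12 fits. In dKO and wildtype cells respectively, the log2 fold changes were 0.58 and 1.35 for Myo1d, a myosin motor, 0.20 and 0.62 for Lyn, a Src-family kinase, and 0.49 and 1.12 for Ets2. They were 0.48 and 1.56 for Bmf, a pro-apoptotic BCL2 relative, 0.53 and 0.91 for Cxcl16, and 0.09 and 0.50 for Adar, an RNA-editing enzyme, whose dKO change did not pass (adjusted p = 0.402). The dKO change alone was lost for Lyn without vehicle replicate 1 or MTOB replicate 2 (adjusted p up to 0.0686) and Bmf when any 1 library other than vehicle replicate 1 was left out (adjusted p up to 0.149). Ptgs1 fell by more in wildtype cells, from 14.3, 15.8 and 18 TPM to 6.29, 5.95 and 5.99 TPM, at a level far under that of dKO cells. Rab31, a small GTPase of endosomal transport, fell by 0.16 in dKO cells, a call lost without vehicle replicate 1 (adjusted p up to 0.0623), and rose by 0.15 in wildtype cells. Pcdhgc3, a protocadherin, is listed at 0 TPM in all 6 dKO samples and at 21.8, 20.7 and 20.2 TPM in wildtype vehicle samples, so its difference rests on the wildtype samples alone. The dKO samples, those given 4-Cl-HIPP included, had an SD of 0, which lowers the shared spread on which its p-value rests. The starting levels of Bmf (14.6 ± 1.67 against 2.45 ± 0.135 TPM, SD, n = 3) and Ets2 (14.8 ± 1.46 against 50.6 ± 2.79 TPM) also differed between the genotypes before MTOB. With a pseudocount of 5 the difference was 0.30 for Ptgs1 (adjusted p = 0.42) and −0.54 for Bmf (adjusted p = 0.253), against 0.61 and −1.08 here. The highest adjusted p of the 9 differences over the 12 fits was between 0.0828 and 0.141.

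**Figure D4:**
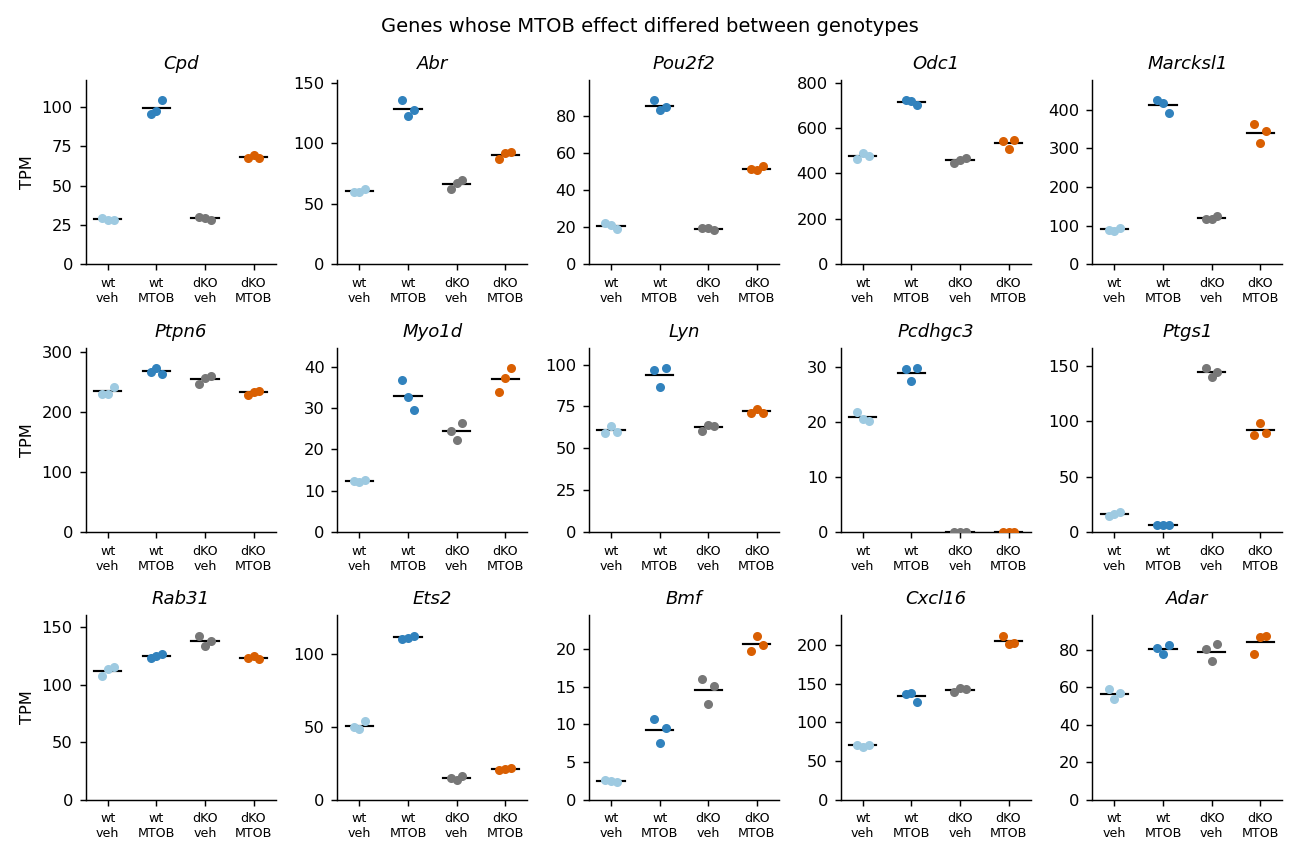
TPM in each sample for the 15 genes whose MTOB effect differed between genotypes, with wildtype vehicle, wildtype MTOB, dKO vehicle and dKO MTOB from left to right. Points are samples (3 per group), bars are group means and each axis starts at 0; the wildtype MTOB samples of Cpd lie near 99 TPM and the dKO MTOB samples near 68 TPM.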

How the data were processed

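J774.1 cells, wildtype or Ctbp1/2dKO, were profiled by RNA-seq from an unstranded library kit, so that a gene and its antisense partner cannot be told apart. The labels give polyA RNA and the methods rRNA depletion, and which was used was not settled. Per the labels and the methods, the authors quantified reads with Salmon 1.9.0 on the GRCm39 (Gencode M28) transcriptome and deposited 1 table of scaled TPM values per gene and sample with a signal column, the mean normalized count from DESeq2 1.44.0. Its columns of log2 fold changes and adjusted p-values from the authors' own comparisons were not used.

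Groups came from the sample titles. Genes above the 10th percentile of the mean normalized count (0.222) were kept, which left 16383 of 18204. Values were compared as log2(TPM + 1) with limma 3.58.1 in R 4.3.3, as 6 group means over 18 samples with a variance trend on the mean normalized count, since TPM cannot enter the authors' count model. Calls used an adjusted p below 0.05 and a 1.5-fold change. The script was tested on simulated data.

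Genes named in the text are the 15 that rose and 10 that fell most among called genes with a mean of at least 5 TPM and no overlap, the 5 most abundant called genes, genes the study names, which it chose on these samples, all genes whose effect differs between genotypes, and members of 32 gene lists. A few of these genes are not reported here. The members and lists were chosen with earlier results of these data known. Where a symbol had several IDs, the most abundant was used. Promoter windows are RefSeq sequences from a GRCm38.p6 table, placed in GRCm39 by an exact match found once on their chromosome. Alternatives were pseudocounts of 0.1 and 5, other filters, median-of-ratios scaling, no variance trend, a fit of only the groups compared, a replicate block and leaving out each sample.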

Additional observations from a re-analysis of the deposited data

Results flagged for a closer look

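The difference of the MTOB effect between genotypes, dKO minus wildtype on the log2 scale, passed limma's interaction test for 15 genes. It was −0.57 for Cpd, −0.62 for Abr, −0.62 for Pou2f2, −0.36 for Odc1 and −0.68 for Marcksl1. It was −0.32 for Ptpn6 and −0.31 for Rab31, the only 2 of the 15 with changes of opposite sign in the genotypes. Myo1d differed by −0.76, Lyn by −0.42, Ets2 by −0.63, Bmf by −1.08, Cxcl16 by −0.39 and Adar by −0.41. Ptgs1 differed by 0.61, since it fell by more in wildtype cells, and Pcdhgc3 by −0.45, with dKO samples all listed at 0 TPM. Single samples within a group of 3 were not tested as outliers.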

How the results depend on the processing

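Of 191 named genes and list members that passed in dKO cells, none changed direction in 14 alternatives, nor did any of the 15 differences between genotypes in 20. Ctbp1 and Ctbp2, which did not pass, each turned to 0.02 without MTOB replicate 2 (adjusted p = 0.991 and 0.908), and Ctbp2 turned from −0.03 to 3.1e-05 without vehicle replicate 3. The 267 calls (189 higher, 78 lower) stayed between 246 and 313 with a pseudocount of 0.1, other filters, median-of-ratios scaling, no variance trend or the replicate block. A pseudocount of 5, which shrinks genes at low levels, left 131 calls, 112 higher and 19 lower, so that 85.5% were higher against 70.8%. Fitting only the groups compared, with fewer samples to estimate the spread, left 135 calls, 106 higher and 29 lower, and 305 genes on the adjusted p alone, 195 higher and 110 lower. Under that fit 46 of 113 results for single genes lost their call, and 13 NRF2 targets rose. The 113 include results that had no call to lose, such as those of Ctbp1, Ctbp2 and Phgdh in dKO cells. Leaving out 1 dKO sample gave 224 to 278 calls, 160 to 204 of them higher and 63 to 87 lower. On the adjusted p alone this gave 722 to 991 genes, 365 to 485 higher and 357 to 564 lower, with 357 without vehicle replicate 2 and 382 without vehicle replicate 3.

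The count of genes whose effect differed between genotypes was 7 to 20 when 1 sample was left out, 6 without a variance trend and 6 with the replicate block. In the replicate block fit 246 genes were called, and 20 of the same 113 single-gene results lost their call. The main fit did not pair samples by replicate number. Same-numbered dKO samples correlated at −0.13, 0.0059 and 0.03 in their deviations from the group means, and wildtype ones at −0.03, −0.06 and −0.10. With groups of 3, such correlations cannot show whether same-numbered samples were handled together. Depth is unknown from TPM, and 83 of the 267 called genes had a mean below 5 TPM, where the pseudocount sets the fold.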

Other observations

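Transcripts of the mitochondrial genome were lower in part after MTOB in dKO cells. Of 15 tested, 4 fell and none rose, with a median log2 fold change of −0.16. They were mt-Nd1 (−0.13), mt-Co1 (−0.16), mt-Rnr2 (−0.17) and mt-Atp6. Replicate 1 of the MTOB group was the lowest for mt-Co1, at 10736, 12329 and 11964 TPM against 13080.5, 13259.9 and 12735 TPM with vehicle, and for mt-Co3, at 2319, 3324 and 4014 TPM against 5872, 5119.8 and 4851 TPM, which did not pass (−0.75, adjusted p = 0.11). In wildtype cells mt-Atp6 was at 0.03 (adjusted p = 0.958). Without MTOB replicate 1, 1 of the 15 fell and the median was −0.08. Without vehicle replicate 2 none fell, without vehicle replicate 1 the count was 1, and without MTOB replicate 2 it was 6. Whether RNA was selected by polyA or by rRNA depletion was not settled from the sources used here, and levels of mitochondrial transcripts, mt-Rnr2 among them, can depend on it. These genes were chosen after their values were seen.

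In dKO cells given 4-Cl-HIPP, the other inhibitor, at 0.25 mM, the genes that led the MTOB response had the following changes against the same vehicle samples, at a dose that differs from that of MTOB. Hmox1 had a log2 fold change of 0.00 (adjusted p = 1), Gm49339 −0.27, Slc7a11 −0.15, Fosl1 0.07, Ptgs2 −0.11 and Actg1 −0.14 (adjusted p = 0.0646). Tgfbr1 was at 0.94 (adjusted p = 1.47e-05) with 4-Cl-HIPP and −0.29 with MTOB, Mt2 at 0.99 (adjusted p = 0.00136) and 0.56, and Rgs2 at 0.81 (adjusted p = 0.0281) and −0.75. Cpd was at 0.47 (adjusted p = 7.14e-05) and 1.19, Pdcd1 at 0.51 (adjusted p = 0.00136) and 1.27, and Ank at 0.52 (adjusted p = 0.000753) and 0.64. Both comparisons share their vehicle samples.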
